A study of Mus musculus with 12 samples.

Results

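Ribosomal protein genes of the cytosol were followed through 6 lists of N4-acetylcytidine (ac4C) peaks from mouse peritoneal macrophages. The genes were chosen by symbol alone: Rpl or Rps followed by digits and at most 1 further letter, plus Rplp0, Rplp1, Rplp2 and Rpsa, without pseudogenes. Of 81 protein-coding genes of that kind in the RefSeq table used here, 13 were named by at least 1 peak, among 2095 gene symbols in the lists as a whole. The remaining 68 had no peak in any list. The 13 were Rpl10a, Rpl13a, Rpl22, Rpl32, Rpl39, Rpl41 and Rplp1 of the large subunit and Rps3, Rps9, Rps15, Rps20, Rps24 and Rps27l of the small subunit.

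The macrophages were kept in culture and treated with interferon-γ (IFN-γ), the cytokine of classical macrophage activation, for 0, 24 or 48 h. At each time 2 samples of RNA bound in an ac4C pull-down (RIP-seq) and 2 samples of total RNA were taken, 12 samples in 6 groups. The samples hold no untreated group of 24 or 48 h, so IFN-γ and elapsed time cannot be told apart. The sources used here do not give the strain, sex and age of the mice, nor whether samples of the same group are separate mice or cultures. The p-values given here therefore rest on the spread between lists alone, and that spread may be technical. Each time has 2 peak lists, called list 1 and list 2 in no order, since a list carries its hour and a number that the labels of no sample hold. A list gives only the regions where the pull-down passed the peak caller's threshold. A gene without a peak therefore has no value, which is not the same as a low transcript level, and fewer cells and less RNA per cell cannot be told apart either. Most of the 15 macrophage markers had no peak in any list. Among those that did, Itgam had a peak in 2 lists, and Lyz2 and Fcer1g in 1 list each. Of the B cell, T cell and neutrophil markers 0 had a peak, and of 6 mesothelial markers 1 did, Wt1 in 1 list.

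The cytosolic ribosome joins a small subunit, which reads the mRNA, and a large subunit, which forms the peptide bonds, and nearly all of its proteins come from single genes of very high and coordinated expression. Their mRNAs begin with a terminal oligopyrimidine (TOP) tract, a stretch of C and U at the 5′ end through which mTOR signalling sets their translation. ac4C is written by the acetyltransferase NAT10, on ribosomal and transfer RNA and also on mRNA. Ribosomal protein genes are further known for a large number of processed pseudogenes, intronless copies of their mRNA in the genome, and for introns that hold small nucleolar RNAs (snoRNAs), the guides of ribosomal RNA modification.

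Runs of pyrimidines lay near the annotated starts of most of these genes, whether or not the gene had a peak. In RefSeq's start windows (build GRCm38.p6) a run of at least 8 bases that are each C or T was searched on the transcript's strand, from 50 bases before to 50 bases after the start. Such a run was found for 9 of the 10 members that matched the table, for 43 of 51 ribosomal protein genes without a peak (84.3%) and for 39.2% of all 17492 protein-coding genes with a window. Among all windows of protein-coding genes, 35.4% held one. The stretches of the 5 matched genes that had a peak in more than 1 list are printed 5′ to 3′ on the strand of the gene, as DNA letters, with the longest run in capitals. They show that 4 of these genes carry a run of 10 to 19 bases, while the longest in the window of Rps3 has 6.
Rpl22 (chr4:152325679-152325708, plus strand): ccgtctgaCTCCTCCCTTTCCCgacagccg
Rpl39 (chrX:37085173-37085194, minus strand): ggtcccggCCTTTCTCTTCTCC
Rpl41 (chr10:128549119-128549136, minus strand): gcagtaggCCTCCCTCTC
Rps24 (chr14:24490708-24490737, plus strand): gtgagcggTCCTCTTTTCCTCCTCTCCagc
Rps3 (chr7:99483735-99483764, minus strand): aaacttcaTTTCCCatgcaaaacttcattt
The stretches of Rpl39 and Rpl41 stop where the window ends. Counted from the annotated start as 0, the printed runs begin at -39 in Rpl22, 36 in Rpl39, 40 in Rpl41, -37 in Rps24 and -47 in Rps3. None of them begins at the annotated start, so they are matches of letters and are not identified with the TOP tract.

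Peaks on ribosomal protein genes numbered at most 6 in a list, and no gene had a peak in more than 3 of the 6 lists. These 13 genes made up 16.0% of the 81, beside 8.14% of all 21900 protein-coding genes (1783 genes). In all they held 21 peaks, 13 on genes of the large subunit and 8 on genes of the small subunit. The untreated lists (0 h) held peaks on 4 and 6 of the genes, the 24 h lists on 4 and 1, and the 48 h lists on 3 and 3. As shares of the 81 these were 4.94% and 7.41%, 4.94% and 1.23%, and 3.7% and 3.7%. Of all protein-coding genes, 3.76% and 3.23% had a peak in the 0 h lists, 2.41% and 2.16% in those of 24 h, and 2.35% and 2.11% in those of 48 h. The means were 5 ± 1.41 genes at 0 h, 2.5 ± 2.12 at 24 h and 3 ± 0 at 48 h (SD, n = 2 lists each), and the values at 0 h and 24 h overlapped.

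The 48 h lists (3 and 3 genes) lay below the 0 h lists (4 and 6), and the 24 h lists (4 and 1) overlapped them. No test passed 0.05, which neither 2 lists against 2 nor 2 against 4 can reach. The 4 later lists differed from the 0 h lists by -2.25 genes on average (two-sided exact permutation p = 0.267, where the smallest possible is 0.0667). The difference from 0 h was -2.5 genes at 24 h (exact p = 0.667) and -2 genes at 48 h (exact p = 0.333, the smallest that 2 lists against 2 allow), and 48 h differed from 24 h by 0.5 genes (exact p = 1). An exact two-sided Jonckheere-Terpstra test over the 90 arrangements of the lists gave p = 0.267 for a trend. Relative to each list's protein-coding genes, ribosomal protein genes made up 0.486% and 0.849% before treatment, 0.758% and 0.212% after 24 h, and 0.583% and 0.648% after 48 h. These shares overlapped at all 3 times, and the later lists differed from the 0 h lists by -0.117 percentage points (exact permutation p = 0.667, two-sided). With lists of equal length that difference was -0.344 points, and at a fold of 4 or more -1.11 points, with all later lists below the 0 h lists in both (exact permutation p = 0.0667 each, the smallest possible). Without 0 h list 2 that difference was 0.064 points, and without 24 h list 2 the difference between 48 h and 24 h was -1 gene, so both signs rest on 1 list. Adjusted by Benjamini-Hochberg over the 7 exact tests of this kind, no p was below 0.583 (exact permutation and trend tests).

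**Figure D1:**
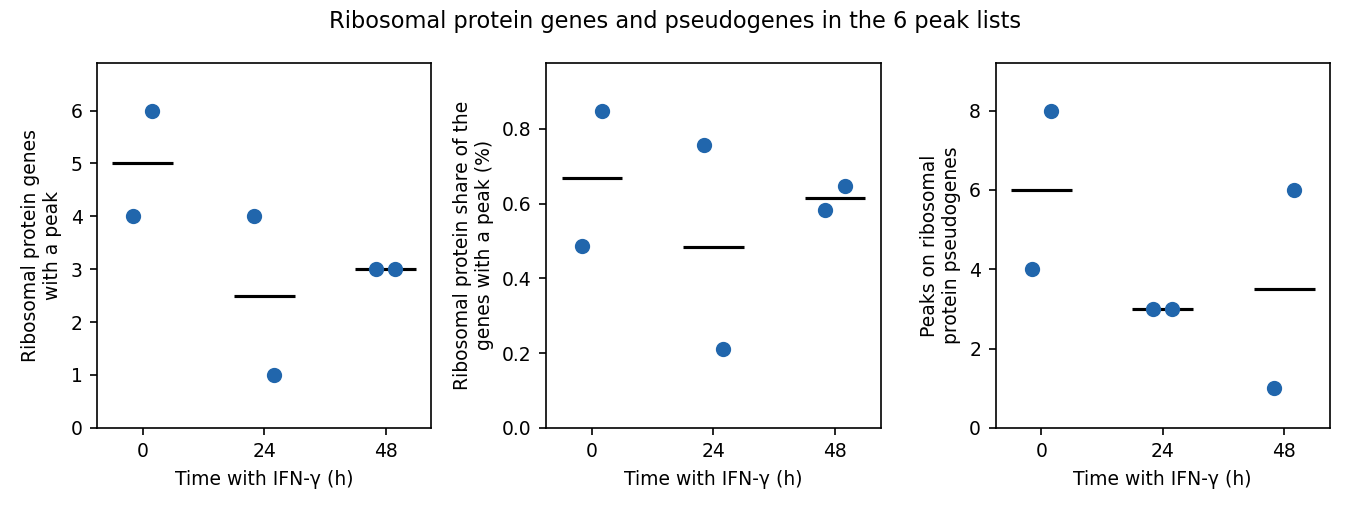
Each panel plots the 6 peak lists against hours with IFN-γ, with list 1 left and list 2 right of each time and a bar at their mean: genes with a peak (left), their share of all protein-coding genes with a peak in percent (middle) and peaks on ribosomal protein pseudogenes (right). The gene number is 4 and 6 at 0 h and 4 and 1 at 24 h, and the shares of the 3 times overlap.

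No peak of 24 h on these genes passed a q of 0.05. All 5 had a −log10 q of at most 1.29, with folds between 2.23 and 2.54, and 3 of them had a q of 1. A q of 0.05 or less thus left 3 and 4 of the genes in the 0 h lists, 0 and 0 in the 24 h lists and 3 and 1 in the 48 h lists. Of all protein-coding genes in a list, 39.2% and 35.8% passed that threshold at 24 h, beside 52.9% and 50.2% in the 0 h lists and 40.8% and 36.1% in the 48 h lists. The 24 h difference at this threshold was -3.5 genes (exact permutation p = 0.333, the smallest possible, n = 2 lists against 2).

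Behind the lists stood unequal depth, estimated from the authors' fold and p. Input depth was taken as the lowest recovered input coverage that several summits of a list shared. Pull-down depth was that value divided by the factor that scales the list's pull-down to its input. Input coverage relative to the deepest list was 100% and 91.4% for 0 h, 73.7% and 80.8% for 24 h, then 57.2% and 44.5% for 48 h. Pull-down depth ran differently, at 91.5% and 78.0% of the deepest list for 0 h, 100% and 98.0% for 24 h, and 78.0% and 68.5% for 48 h. At input coverage matched to the shallowest list the numbers of ribosomal protein genes were 4 and 5, 2 and 1, and 3 and 3 at 0, 24 and 48 h, with a difference of -2.25 genes between the later lists and 0 h (exact permutation p = 0.133).

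**Figure D2:**
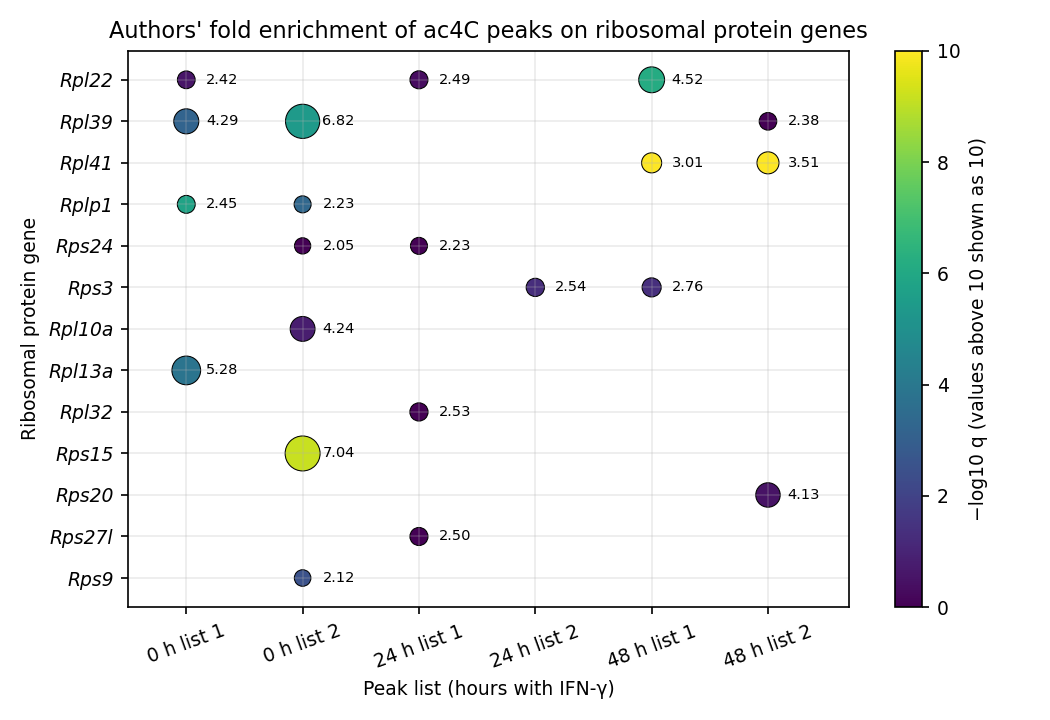
Each point is a peak on a ribosomal protein gene (rows) in a list (columns); the number beside it and its size give the authors' fold enrichment, its colour −log10 q, with values above 10 drawn as 10. Rpl22 and Rpl39 have points in 3 lists, Rplp1 in both 0 h lists and Rpl41 in both 48 h lists.

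The members with a peak in 2 or 3 lists were Rpl22, Rpl39, Rpl41, Rplp1, Rps3 and Rps24, and in each of them the peaks of the different lists lay on the same stretch, sharing 191 to 225 bases. A peak in 1 list was found for 7 of the 13 genes (53.8%, beside 52% of all protein-coding genes with peaks), in 2 lists for 4 (beside 23.4%) and in 3 lists for 2 (beside 11.3%). In 4, 5 or 6 lists it was found for 0 of them, beside 5.5%, 4.49% and 3.25% of all. Coordinates below are the authors', in GRCm39. Fragments are the recovered number of pull-down fragments over the summit, beside the input coverage there, which is scaled to no other list.

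Rplp1 and Rpl39 of the large subunit had peaks in both lists of 0 h (2 of the 8 members found at 0 h, beside 32.1% of all genes found then), and neither was found at 24 h. Rplp1 (ENSMUSG00000007892), the acidic P1 protein of the ribosomal stalk that recruits elongation factors, had a peak centred in the 3′ UTR at chromosome 9, 61820575 to 61820801, in 0 h list 1 and 61820576 to 61820805 in list 2. Its fold was 2.45 (155 fragments over an input of 27) and 2.23 (122 fragments over 25), with a −log10 q of 5.81 and 3.35. It had no peak in any of the 4 later lists. Both of its 0 h peaks passed a q of 0.05 and the matched input coverage.

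Rpl39 (ENSMUSG00000079641) encodes a small protein that lines the tunnel through which the nascent chain leaves the ribosome. Its peaks were centred in the 3′ UTR on chromosome X, at 36346170 to 36346450 in 0 h list 1, 36346152 to 36346448 in 0 h list 2 and 36346223 to 36346440 in 48 h list 2. The fold was 4.29 (37 fragments over an input of 3) and 6.82 (27 over 1) at 0 h, with a −log10 q of 3.17 and 5.41. At 48 h it was 2.38 (42 fragments over an input of 4) with a q of 1. The 48 h peak thus lay at the foot of its list, at percentile 6.3 by p, where the 0 h peaks lay at percentiles 66.5 and 77.6.

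Over all protein-coding genes shared by the 0 h lists, 41.7% were in neither list of 24 h and 38.2% in neither of 48 h. Among the ribosomal protein genes these were 2 of 2 at 24 h and 1 of 2, Rplp1, at 48 h. With 2 genes nothing can be read from these shares. Both comparisons use the 0 h lists. Of the 5 members found at 24 h, 0 were in both lists of that time (beside 23% of all genes), so 0 could be newly shared at 24 h (beside 22.5%) or be lost from 24 h to 48 h (beside 24.6%).

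Rpl41 was the member with the most pull-down fragments, and its peaks were found at 48 h and at no other time. Rpl41 (ENSMUSG00000093674) encodes a very short, highly basic protein of the large subunit. Its peaks were centred in the last exon on chromosome 10, at 128384057 to 128384265 in 48 h list 1 and 128384031 to 128384257 in list 2. The fold was 3.01 (335 fragments over an input of 32) and 3.51 (334 over 24), and the −log10 q 15.01 and 16.5. In their lists these peaks ranked at percentiles 95.8 and 97.1 by p, and both passed a q of 1e-05. Rpl41 was the single one of 5 members at 48 h that both lists shared (beside 22.7% of all genes). Of all protein-coding genes shared by the 48 h lists, 24.3% were in neither list of 0 h, and likewise 24.3% in neither of 24 h. As both folds were under 4, the peaks were missing at a fold of 4 or more.

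Rpl22 had a peak in 1 list of each time. Rpl22 (ENSMUSG00000028936), an RNA-binding protein of the large subunit that the ribosome can do without and that T cell development needs, had its peaks centred in the last exon on chromosome 4. They spanned 152416734 to 152416958 in 0 h list 1, 152416703 to 152416925 in 24 h list 1 and 152416734 to 152416965 in 48 h list 1. The fold was 2.42 (53 fragments over an input of 9), 2.49 (81 over 9) and 4.52 (89 over 5). The −log10 q was 0.548, 0.318 and 6.1, so the peak at 48 h alone passed a q of 0.05. Each of the 3 peaks began in the last intron and ended in the 3′ UTR.

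Rps24 and Rps3 were the small subunit genes with a peak in more than 1 list. Rps24 (ENSMUSG00000025290), a gene mutated in Diamond-Blackfan anaemia, had peaks centred in the last exon on chromosome 14, at 24541955 to 24542184 in 0 h list 2 and 24541962 to 24542185 in 24 h list 1. The folds were 2.05 (46 fragments over an input of 10) and 2.23 (80 over 10), and the q of both was 1. Rps3 (ENSMUSG00000030744), which lies at the entry of the mRNA channel, had peaks on chromosome 7 at 99131643 to 99131909 in 24 h list 2, centred in intron 2, and at 99131701 to 99131909 in 48 h list 1, centred in exon 2. The folds were 2.54 (89 fragments over an input of 10.9) and 2.76 (92 over 9.15), with a −log10 q of 1.29 and 1.33, on either side of a q of 0.05.

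Among the members of 1 list were peaks with high folds on few fragments. Rps15 (ENSMUSG00000063457), a protein of the head of the small subunit near the decoding site, had the highest fold of the 21 peaks, 7.04, in exon 2 at chromosome 10, 80129470 to 80129704, in 0 h list 2, from 43 fragments over an input of 2 (−log10 q of 9.15). Rpl13a (ENSMUSG00000074129), which IFN-γ is known to release from the ribosome in myeloid cells to silence inflammatory mRNAs as part of the GAIT complex, had a 3′ UTR peak in 0 h list 1 at chromosome 7, 44775175 to 44775418. Its fold was 5.28, from 34 fragments over an input of 2 (−log10 q of 3.85). Neither 0 h list 2 nor any later list held a peak on Rpl13a. The authors' rows gave the same peak to Gm45713, a predicted gene, as well. Rps20, also of the head of the small subunit, had a peak centred in the 3′ UTR in 48 h list 2, from 28 fragments over an input of 1 (fold of 4.13).

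Rps9, an assembly protein of the small subunit, had a 3′ UTR peak in 0 h list 2 at a fold of 2.12 (120 fragments over an input of 26, −log10 q of 2.53). Rpl32 and Rps27l, a p53-induced relative of Rps27, had their peaks in 24 h list 1, centred in the 3′ UTR for Rpl32 and in the last exon for Rps27l. Their folds were 2.53 and 2.5, from 31 and 39 fragments, and their q was 1. The Rpl32 peak reached outside the gene and was given to Cand2 as well.

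Rpl10a (ENSMUSG00000037805), a large subunit protein on the stalk that holds the exit site, was a member by 3 bases. Its peak in 0 h list 2, at chromosome 17, 28548026 to 28548255, lay with its centre 111 bases before the gene's start (-111) and ended 3 bases past it, in exon 1. In 0 h list 1 a peak of nearly the same position, 28548020 to 28548244, ended 8 bases before the start, overlapped 0 genes and so did not count as a peak of the gene. The folds were 4.24 (16 fragments over an input of 1) and 3.68 (23 over 2), and the −log10 q 0.795 and 0.922. Since both peaks lie almost wholly before the annotated start, the 250 bases before the start of Rpl10a are shown, as RefSeq places it in GRCm38.p6 (chr17:28328221-28328470, plus strand).
Rpl10a: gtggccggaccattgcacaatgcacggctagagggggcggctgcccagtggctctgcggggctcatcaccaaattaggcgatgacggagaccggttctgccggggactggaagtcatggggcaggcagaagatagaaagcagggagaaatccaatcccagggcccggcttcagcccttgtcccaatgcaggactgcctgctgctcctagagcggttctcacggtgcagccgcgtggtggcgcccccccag
This stretch holds 64% G and C, beside a mean of 55.5% for the same stretch of all protein-coding windows. RefSeq lists a start 94 bases further on as well, and which of the starts is the deposited one was not matched between the builds.

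Most peaks on ribosomal protein genes were centred in the 3′ UTR or the last exon, as were most of all peaks on protein-coding genes. For 6 of the genes the 21 peaks hold the same stretch from more than 1 list. The 3′ UTR held 9 of the 21 peaks (42.9%) and the last exon 8 (38.1%), where over all 4033 peaks on protein-coding genes the shares were 57.5% and 11.9%. Other exons held 2 of the 21, an intron 1, the 5′ UTR 0, and 1, that of Rpl10a, was centred outside the gene. At 0 h 6 of 10 peaks lay in the 3′ UTR and 2 in the last exon. Of the 5 peaks at 24 h these places held 1 and 3, and of the 6 at 48 h 2 and 3. The same split by time over all protein-coding genes is not given here, so no change of place is read from these counts.

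**Figure D3:**
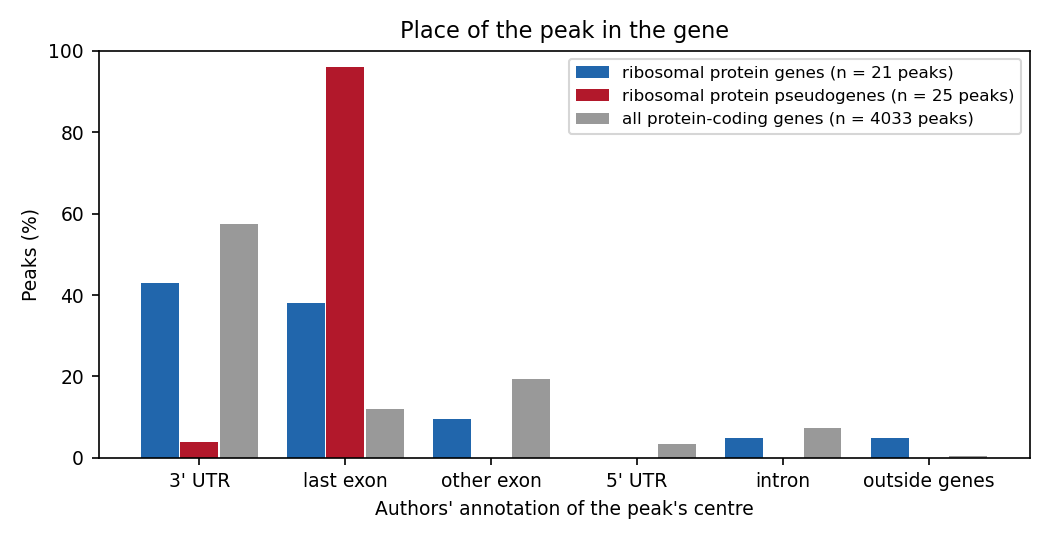
Bars give the percent of peaks by the authors' annotation of the peak's centre, for ribosomal protein genes (21 peaks), their pseudogenes (25 peaks) and all protein-coding genes (4033 peaks). Last exons hold 38.1% of the first, 96% of the second and 11.9% of the third.

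Many of the peaks also reached into an intron. For 14 of the 21 peaks (66.7%) the start, the centre or the end lay in an intron, against 25.9% of all peaks on protein-coding genes. The widths were 208 to 296 bases, with a median of 229 beside 260 for all. For 7 of the 21 peaks (33.3%) the closest annotated start was that of a locus named as a snoRNA. Over all peaks on protein-coding genes the share was 1.83%. Predicted Gm loci, such as the one closest to the Rps20 peak, were not counted. The 7 peaks were those of Rpl13a (Snord35a), Rpl32 (Snora7a), Rpl39 (Snora69) and Rps3 (Snord15a). No peak covered the snoRNA itself, the gap being 83 to 2287 bases, with 83 bases for both peaks of Rps3 and 115 to 125 bases for those of Rpl39.

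Pseudogenes of ribosomal proteins held about as many peaks as the genes, and which held more depended on the loci counted. The number of such pseudogenes in the annotation is not given here, so the share of them with a peak cannot be set beside that of the genes. Pseudogenes named for a ribosomal protein, together with Rps3a2 and Rps3a3, which RefSeq types as pseudogenes and which were added after their values were seen, held 25 peaks on 13 loci, 54.3% of the 46 peaks on either kind, and 0 of the 21 peaks on genes also lay on such a pseudogene. Without Rps3a2 and Rps3a3 there were 20 peaks on 11 loci, 48.8% of 41, fewer than the 21 on the genes. With them, the peaks numbered 4 and 8 in the 0 h lists, 3 and 3 in the 24 h lists, and 1 and 6 in the 48 h lists. The later lists differed from the 0 h lists by -2.75 peaks on average (exact permutation p = 0.267, two-sided), within the spread of the lists.

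Pseudogene peaks had far more coverage and lower folds. Their median summit held 299 pull-down fragments over an input coverage of 62, where peaks on ribosomal protein genes had 53 over 9 and all peaks on protein-coding genes 45 over 4. The median fold was 2.23 on pseudogenes, 2.54 on the genes and 3.04 over all. A q of 0.05 or less was reached by 21 of the 25 pseudogene peaks (84%), by 11 of the 21 peaks on genes (52.4%) and by 41.9% of all peaks on protein-coding genes.

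The highest −log10 q and the most fragments were those of Rps24-ps3, a copy of Rps24, at chromosome X, 78238785 to 78239076 in 0 h list 1. Its peak held 901 fragments over an input of 154 there (fold of 2.55, −log10 q of 51.4), 722 over 144 in 0 h list 2 and 906 over 105 in 48 h list 2. The peaks on Rps24 itself held 46 and 80 fragments. Rps3a2 had a peak in 4 lists, and Rpl19-ps11, Rps16-ps2 and Rps23-ps1 had peaks in 3 each. Rps19-ps6 had a peak in both 24 h lists, at folds of 3.95 and 1.91. Found in 1 list were Rplp2-ps1, Rpl18-ps2, Rpl36a-ps1, Rpsa-ps2, Rpl36a-ps2, Rps3a3 and Rpsa-ps12. Some of these peaks also lay on another gene: Ddah1 for Rpl36a-ps2, Wdr89 for Rplp2-ps1, Adgrd1 for Rps16-ps2 and Tecpr2 for Rps19-ps6. The peaks of Rpl19-ps11 likewise overlapped 2 annotated genes, counting Rpl19-ps11 itself. For 10 of the 13 loci the gene they copy had no peak in any list; the exceptions were Rps24-ps3 and both copies of Rps3a1.

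Rps3a1 itself, whose symbol falls outside the rule by its last digit, had a peak in exon 3 in 48 h list 1 at a fold of 5.48, from 34 fragments over an input of 1. Pseudogenes are near copies of the spliced mRNA, and the sources used here do not say how reads that fit several places were handled, so fragments of the gene and of its copies cannot be told apart. How the aligner, BWA, placed reads that cross from an exon into the next was not tested either. Predicted loci whose name does not give a ribosomal protein were not counted.

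**Figure D4:**
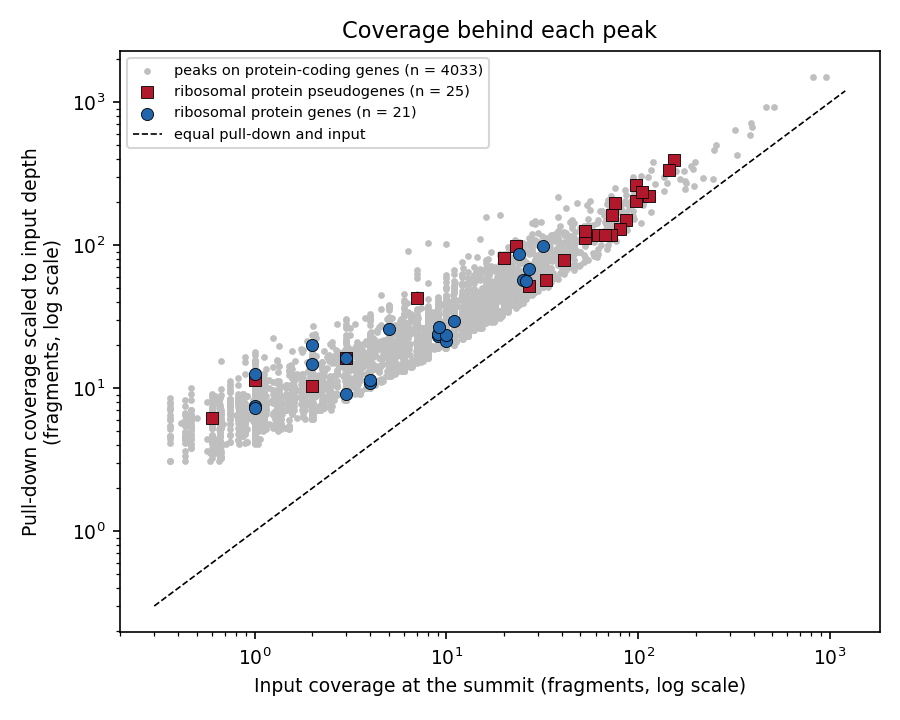
Each point is a peak, by the input coverage at its summit (x) and the pull-down coverage scaled to input depth (y), in fragments on log scales; the dashed line marks equal coverage. Pseudogene peaks (squares) lie mostly at the right, with a median input of 62, and peaks on ribosomal protein genes (blue) at a median of 9.

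Other genes of the translation machinery were examined beside these, with the 8.14% of all protein-coding genes as background. Of 78 genes of mitochondrial ribosomal proteins, which serve the separate ribosome of that organelle, 4 had a peak (5.13%), and of 24 other genes with TOP mRNAs or ribosome-bound products 4 did (16.7%). Mrpl33 had a last-exon peak in both 0 h lists, 24 h list 2 and 48 h list 1, at folds of 2.19, 2.38, 2.44 and 3.24. The −log10 q was 1.12, 1.48, 0.29 and 1.77, and each of these peaks overlapped 2 annotated genes, counting Mrpl33 itself. Mrps6 was found in 0 h list 1 at a fold of 6.01, on a peak that likewise overlapped 2 genes. Mrpl12 was found in 0 h list 2 at a fold of 4.35, and Mrpl20 in 24 h list 2.

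Eef1b2, the exchange factor subunit that reloads elongation factor eEF1A with GTP, had a peak in exon 3 in all 6 lists, at folds between 1.49 and 2.91, and 3 of these 6 had a q of 1. Gnl3, which encodes the nucleolar GTPase nucleostemin, had a peak in both 24 h lists alone, at folds of 2.68 and 3.52. These came from 33 and 29 fragments over inputs of 3 and 2, and neither passed a q of 0.05. Npm1 had its 3′ UTR peak in both 0 h lists and 48 h list 2, from 271, 234 and 244 fragments over inputs of 36, 29 and 12. Npm1 encodes nucleophosmin, a nucleolar chaperone of ribosome assembly. Eif4b had a peak in 0 h list 2.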

How the data were processed

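Each deposited list holds 1 row per summit and overlapped gene. The submitters' processing notes name the aligner BWA (0.7.12), the peak caller MACS2 (2.1.0) and the build GRCm39; settings are not stated. Fold enrichment is the authors' ratio, and p and q are the authors' −log10 values, per the file headers. Each time has 2 lists, not pooled, and total RNA was not analysed here.

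A gene had a peak when any row named it, and the authors' annotation of the peak's centre gave its place. A gene was lost or gained when both lists of a time held a peak and neither of the other did. Whole pull-down fragments k and input coverage came from fold = (k × factor + 1)/(input + 1) and the upper Poisson tail, within 0.005 of −log10 p for 100% of summits. As k was chosen to match p, that match is no separate check. Of 700 summits simulated by the same formula 100% were recovered. None of these had an input of 1 or less, so recovery at such inputs was not tested. The sources used here do not name the control library, here termed input. The lists' lowest −log10 p was 2.30 to 2.33.

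Numbers per list were compared by exact permutation. RefSeq names came from GRCm38.p6 (94.4% of symbols matched), used for no coordinate of a peak. Members and lists were chosen with earlier results of these data known. Every member with a row was named, and other genes only where a list of mitochondrial ribosomal proteins or of TOP and ribosome-linked genes held them. Python 3.11.15 and SciPy 1.17.1 were used. Some marker results are not reported here.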

Additional observations from a re-analysis of the deposited data

How the results depend on the processing

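Of 102 values under other settings, 90 kept their direction and side of 0.05 (tests), stayed within 1.5 times (counts) or within the binomial interval (place). The side of 0.05 was fixed in advance for tests of 2 lists against 2 or 4. Genes gained from 0 h to 24 h or lost from 24 h to 48 h could only be 0 with all lists kept. For such values, staying the same is no sign of robustness. The 13 genes with a peak became 8 at a q of 0.05 or less, 5 at a q of 1e-05 or less and 6 at a fold of 4 or more. At a fold of 4 or more 1 gene was lost from 0 h to 24 h, 0 were gained from 0 h to 48 h and 0 from 24 h to 48 h. At a q of 1e-05 or less 0 were lost from 0 h to 24 h and 0 from 0 h to 48 h, the difference between 48 h and 0 h was 0 genes and the trend statistic lay 0 from its expected value (beside -3.5), and at a q of 0.05 or less 2 were lost from 0 h to 48 h. The share of genes with a peak that were ribosomal, later lists minus 0 h, turned to 0.267 percentage points at a q of 1e-05 or less (exact permutation p = 0.8). The cause was not tested, other than that these settings leave fewer peaks. The pseudogene difference of -2.75 peaks was -0.25 at a fold of 4 or more, and -2.5 for loci named -ps alone, an alternative chosen after seeing the data. Leaving out each list in turn gave ranges of -4 to -1 genes for 24 h against 0 h, -3 to -1 for 48 h against 0 h, -1 to 2 for 48 h against 24 h, -3.25 to -1.25 for later lists against 0 h, -0.299 to 0.064 percentage points for the share, -4.75 to -0.75 pseudogene peaks and 10 to 13 genes in any list. The genes lost then numbered 2 to 5 from 0 h to 24 h, 1 to 5 from 0 h to 48 h and 0 to 3 from 24 h to 48 h, and those gained 0 to 2, 1 to 2 and 1 to 3; with 1 list of a time, 1 peak was enough, and the highest losses from 0 h came without 0 h list 1. The share of peaks in the 3′ UTR or last exon was 76.5% to 86.7%. No paired analysis was possible because the numbers of the lists name no sample and pair nothing. At matched input coverage 11 of the 13 genes had a peak; Rpl32 and Rps27l had none.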
